A study of Mus musculus with 9 samples.

Results

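The Hedgehog pathway genes followed here were 9 in number: the ligands Shh and Ihh, the receptor Ptch1, the ligand-binding antagonist Hhip, the signal transducer Smo, its downstream inhibitor Sufu, and the transcription factors Gli1, Gli2 and Gli3. They were chosen by symbol. A probe set, the exon-level unit of the array, was assigned to a member when the platform annotation gave it that symbol alone. This gave 107 of 154736 probe sets for 8 members, between 3 for Shh and 22 for Ptch1. No probe set carried Gli2, alone or with other symbols, in the annotation used here, and Gli2 was not analysed. A gene's level was the median log2 signal of its probe sets, which placed the 8 members among 14507 genes. The arrays came from adult wild-type female mice of mixed C57BL6/CBA background. The tail epidermis was taken apart by hand into sebaceous glands (SG), hair follicles (HF) and the epidermis between the follicles (interfollicular epidermis, IFE). Pieces of a compartment were pooled, and each compartment was represented by 3 biological replicates, 9 arrays in all. The labels name no allele or treatment, and the stage of the hair cycle is not given in the sources used here.

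Hedgehog ligands are secreted proteins that bind Patched receptors. In their absence Ptch1 holds back Smo, and Sufu and proteolytic processing keep the GLI factors from activating transcription. Binding of a ligand lifts this block, and Gli1, Ptch1 and Hhip are themselves classic targets of the pathway, so that Ptch1 and Hhip feed back on it. Hhip sits at the cell surface or is shed, and it sequesters ligand. In skin, Shh made in the hair follicle drives follicle formation and growth, and Gli1 marks cells of the follicle. Ihh has been described in sebaceous glands.

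For 9 of 9 arrays the scanner file name quoted in the description pointed to a different compartment from the title, and the titles set the groups. Mean levels of marker lists, each gene centred on its mean over the arrays, followed the titles. The sebocyte list (13 of 14 genes measured) lay between 1.44 and 1.89 on the SG arrays, between -0.42 and 0.13 on the HF arrays and between -1.71 and -1.36 on the IFE arrays. The list for hair shaft and inner root sheath (14 of 18 genes) lay between 2.38 and 3.06 on the HF arrays, between -2.17 and -2.12 on the IFE arrays, and at -1.67, -1.44 and 1.09 on SG replicates 1, 2 and 3. SG replicate 3 thus stood apart from the other SG arrays in hair shaft genes. The suprabasal epidermis list (8 of 12 genes) was highest on the IFE arrays, at 0.87 to 1.18. HF replicate 2 had the lowest hair shaft level of the HF arrays, at 2.38. The median signal of an array, on the linear scale as deposited, ran from 176 to 234. P-values measure the spread between pooled dissections, and the number of arrays limits their precision.

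Among the 8 measured members, Hhip was the gene whose level set IFE apart from both SG and HF. It was 3.91-fold lower in SG and 4.32-fold lower in HF than in IFE. None of the other 7 passed the threshold in any comparison at the gene level, which was an adjusted p under 0.05 (Benjamini-Hochberg over all genes, limma) and a log2 difference of at least 1. Between SG and HF no member passed it, and no member had an unadjusted p under 0.05. The background by this threshold was 2.54% of all genes higher and 6.96% lower in SG against IFE. It was 2.96% higher and 3.36% lower in HF against IFE. Between SG and HF it was 1.81% higher and 3.3% lower in SG, 5.11% in either direction. The median log2 difference of the 8 members was 0.19 for SG against IFE and 0.20 for HF against IFE, where that of all genes was -0.06 and -0.07. In limma's F test over the compartments, 1 of 8 members had an adjusted p under 0.05, against 24.5% of all genes. When the mean of the probe sets replaced their median, 4 members did (Hhip, Shh, Gli1 and Ptch1, the last with an adjusted p of 0.0195). The probe sets of Shh, Gli1 and Ptch1 were therefore examined beside the gene values.

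**Figure D1:**
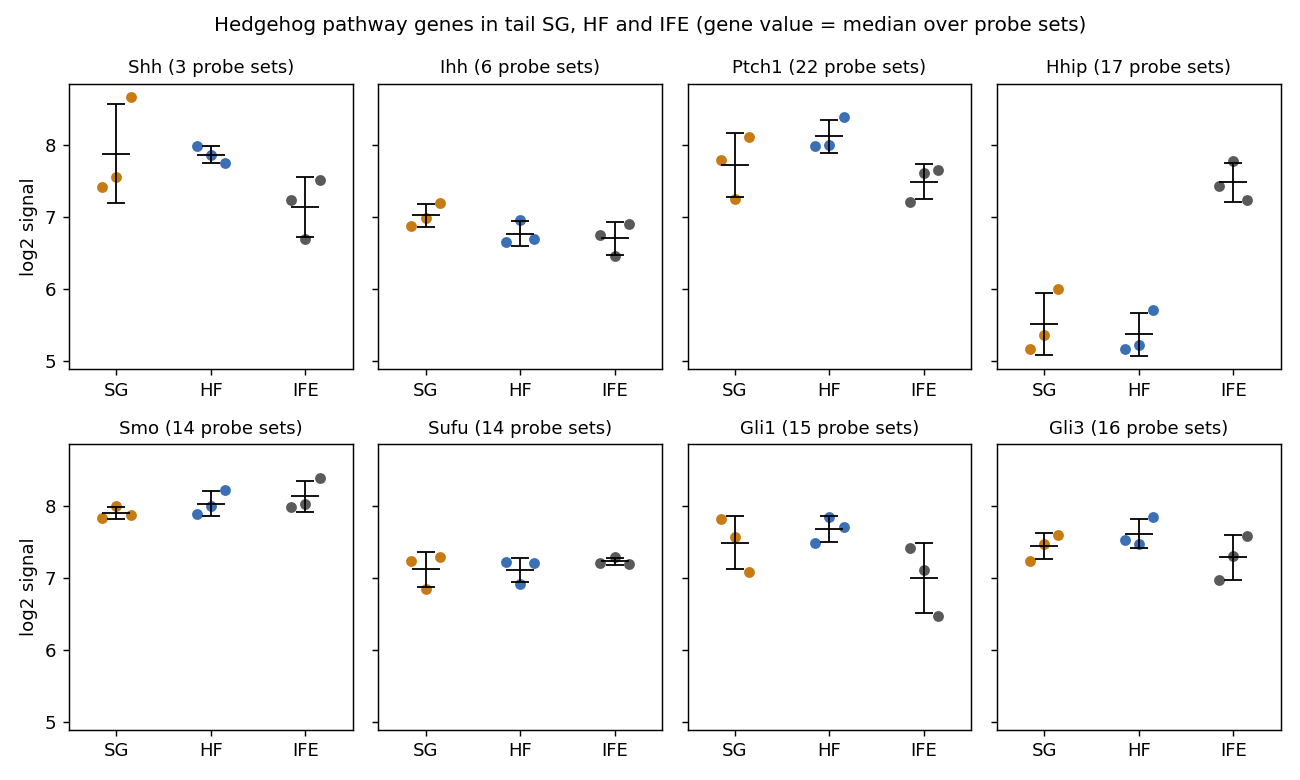
Gene level (median log2 signal over probe sets) of each measured member on the 3 SG, 3 HF and 3 IFE arrays. Points are arrays, bars are the mean and its SD. Hhip lay between 5.17 and 6.0 on the SG and HF arrays and between 7.23 and 7.77 on the IFE arrays, and for Ihh, Smo, Gli3 and Sufu the arrays of the compartments overlap.

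**Figure D2:**
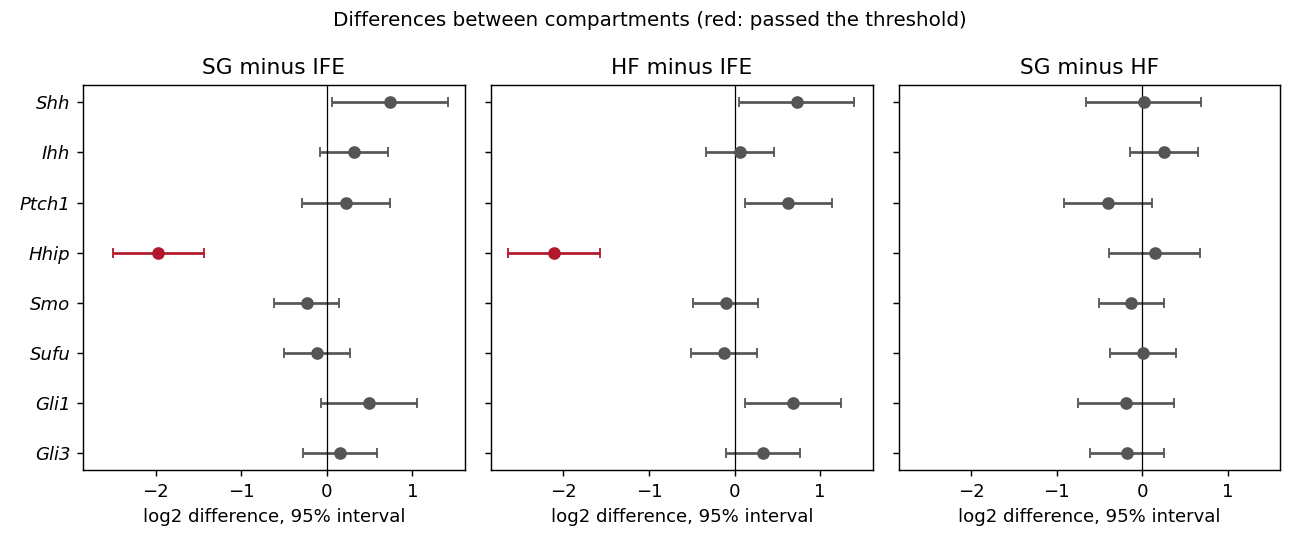
Log2 difference of each measured member in the 3 comparisons, with the 95% interval of the limma fit. Red marks an adjusted p under 0.05 with a log2 difference of at least 1, which Hhip reached at -1.97 for SG minus IFE and at -2.11 for HF minus IFE.

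The RefSeq promoter windows of Hhip, the member that changed, and of Ptch1, a feedback target with mostly positive probe-set differences, are shown for comparison. Both run from 250 bases before to 50 bases after the annotated start on assembly GRCm38.p6, and capitals mark the bases from the start onward. The Hhip window is chr8:80057959-80058258 on the minus strand, and the Ptch1 window is chr13:63565686-63565985 on the minus strand.
Hhip: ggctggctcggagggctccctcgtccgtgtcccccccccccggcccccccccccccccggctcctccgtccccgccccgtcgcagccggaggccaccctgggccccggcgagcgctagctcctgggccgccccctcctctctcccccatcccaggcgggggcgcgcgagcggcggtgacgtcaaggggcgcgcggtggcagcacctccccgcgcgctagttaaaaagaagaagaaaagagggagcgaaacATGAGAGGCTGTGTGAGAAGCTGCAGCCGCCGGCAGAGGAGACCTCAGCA
Ptch1: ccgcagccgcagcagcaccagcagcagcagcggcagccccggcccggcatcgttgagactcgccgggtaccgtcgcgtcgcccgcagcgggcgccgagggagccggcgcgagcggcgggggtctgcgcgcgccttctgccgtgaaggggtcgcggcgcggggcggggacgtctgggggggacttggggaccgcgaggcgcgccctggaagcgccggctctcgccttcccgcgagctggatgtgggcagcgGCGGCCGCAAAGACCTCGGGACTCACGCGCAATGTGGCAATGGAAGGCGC
Both windows are rich in G and C, with 73.7% in Hhip and 76.3% in Ptch1 against a median of 52.7% over 32851 promoter windows. The GLI consensus GACCACCCA, searched on both strands, was found in 0.253% of all windows and in none of the 7 windows available for members. The 7 include that of Gli2, and no window was available for Shh or Gli1. At that share over all windows, a match in 7 windows of any genes was unlikely. The absence of these letters from these windows says nothing of sites elsewhere.

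Hhip, the antagonist that binds ligand outside the cell, had log2 signals of 5.17, 5.36 and 6.0 on the SG arrays and 5.17, 5.22 and 5.71 on the HF arrays, against 7.43, 7.77 and 7.23 on the IFE arrays. Every SG and HF array was below every IFE array, and SG and HF overlapped. The mean was 5.51 ± 0.43 in SG and 5.37 ± 0.30 in HF, against 7.48 ± 0.27 in IFE (SD, n = 3 each). Hhip fell by 1.97 ± 0.25 (SE) on the log2 scale in SG against IFE (limma adjusted p = 0.000232), and by 2.11 ± 0.25 in HF against IFE (adjusted p = 0.000185). Quantile normalization gave -1.77 and -2.08, and median centring of the arrays -1.73 and -2.0, with both calls kept. Leaving out any 1 array kept both calls, with differences between -2.21 and -1.80 for SG and between -2.28 and -1.96 for HF. Between SG and HF the difference was 0.14, with a 95% interval from -0.39 to 0.68 (adjusted p = 0.787). In bulk tissue, fewer cells that make a transcript and less transcript per cell cannot be told apart.

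The lower level of Hhip in SG and HF was seen in most of its probe sets. Of its 17 probe sets, 14 were lower in SG than in IFE and 13 lower in HF than in IFE in limma's fit of all probe sets, by the same threshold, where 12.4% and 3.81% of all probe sets were. Probe sets of a gene are not independent of each other. For 16 of 17 the 3 SG arrays lay below the 3 IFE arrays, and the same count held for HF, where 25.1% and 20.9% of all probe sets did so. The differences of SG against IFE spanned -3.80 to 0.02. Without IFE replicate 2 the number of Hhip probe sets lower in SG was 9 instead of 14, and with the final letter of each array name as a block it was 9 in SG and 6 in HF.

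The steepest of them, probe set 5243549, read 4.04, 4.48 and 5.69 in SG and 5.66, 4.89 and 5.95 in HF, against 8.24, 8.92 and 8.45 in IFE. It was 13.9-fold lower in SG (log2 difference -3.80 ± 0.42 SE, limma adjusted p = 0.000388) and 8.20-fold lower in HF (-3.04 ± 0.42, adjusted p = 0.00202). Like the gene level of Hhip, these SG and HF readings lay below the median gene level of those arrays, 7.24 to 7.44. Signal over background is unknown, which limits the fold sizes. The Hhip probe set brightest by its mean over all arrays, 4439692, read 8.30, 8.14 and 8.15 in SG and 7.96, 7.87 and 7.97 in HF, against 8.45, 8.52 and 8.51 in IFE. The groups still did not overlap, but neither difference passed the threshold (-0.30, adjusted p = 0.29 and -0.56, adjusted p = 0.0971). Probe set 5156834 averaged 7.81 in SG and 7.83 in HF, against 7.78 in IFE. With the brightest probe set as the gene's value, Hhip was not called against IFE in either compartment. On the IFE arrays alone, probe sets 4727801 (mean 9.23), 4463306 (9.16) and 5243549 (8.54) were above 4439692 (8.495). Each of them was called lower in SG (-2.26, -2.80 and -3.80) and in HF (-2.19, -3.13 and -3.04). They were picked by their IFE level, which favours lower values in SG and HF, so these calls are no separate support. The annotation used here does not give the exon of a probe set, so these could not be placed along the transcript.

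**Figure D3:**
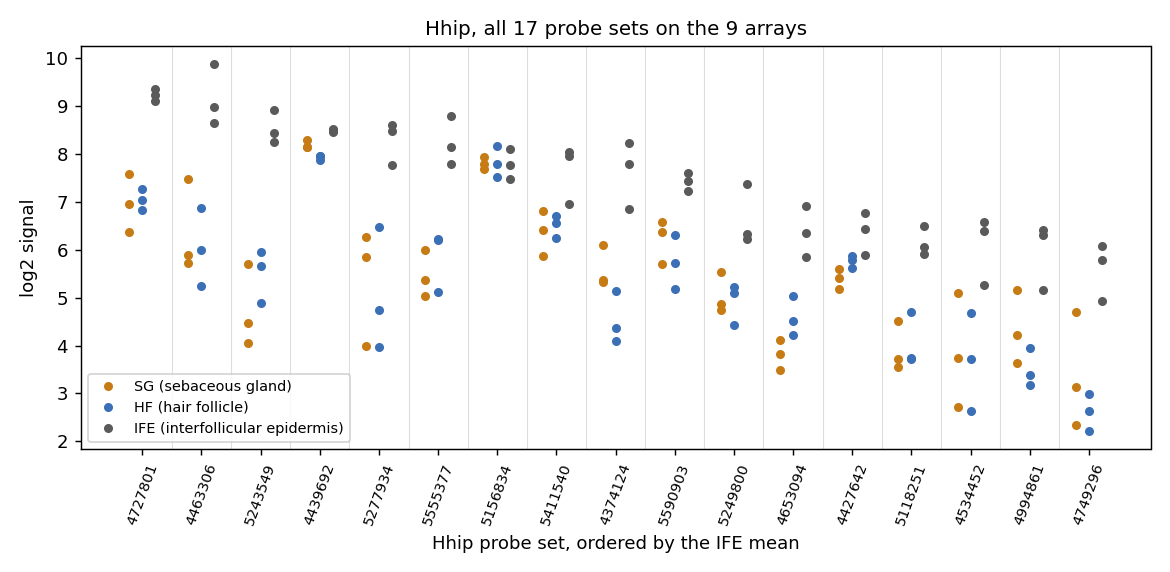
Log2 signal of the 17 Hhip probe sets (columns, ordered by the IFE mean) on the SG, HF and IFE arrays (points). The IFE arrays lie above the SG and HF arrays in 16 columns, and in probe set 5156834 the compartments overlap.

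The suprabasal and basal keratinocyte lists moved with Hhip, while the sebocyte and follicle lists moved the other way. The suprabasal list lay at -0.73 to -0.62 in SG and -0.57 to -0.09 in HF, against 0.87 to 1.18 in IFE, with 6 of 8 genes lower in SG and 5 of 8 lower in HF. The basal keratinocyte list lay at -0.43 to -0.06 in SG and -0.35 to -0.17 in HF, against 0.30 to 0.67 in IFE. In each, 2 of 8 genes were lower, where 6.96% of all genes were lower in SG and 3.36% in HF. The outer root sheath and resting follicle list lay at 0.26 to 0.36 in SG and 0.52 to 0.56 in HF, against -0.88 to -0.78 in IFE. Of its 14 genes, 7 were higher in SG and 9 in HF. The part of these lists in the Hhip difference was not tested. The genes whose centred log2 profile over the 9 arrays came closest to that of Hhip were Kazald1, a secreted protein with a Kazal domain (root mean square difference 0.25), Egln3, a prolyl hydroxylase that acts on hypoxia-inducible factors (0.30), and Satb1, a chromatin organiser (0.31). Kazald1 had log2 differences of -1.59 in SG and -1.68 in HF against IFE. Satb1 differed by -2.24 in SG and -2.19 in HF, but its brightest probe set gave 0.26 and -0.02, which were not called.

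Shh, the ligand of the hair follicle, rested on 3 probe sets that differed among themselves. Its gene level was 7.41, 7.56 and 8.67 on the SG arrays and 7.99, 7.86 and 7.76 on the HF arrays, against 7.23, 6.69 and 7.51 on the IFE arrays. Every HF array was above every IFE array, while SG overlapped both. The difference was 0.72 ± 0.31 (SE) for HF against IFE (95% interval 0.05 to 1.40, limma adjusted p = 0.159) and 0.74 ± 0.31 for SG against IFE (0.07 to 1.41, adjusted p = 0.11), and neither passed. Groups that did not overlap and were higher in HF than in IFE were seen for 3 of 8 members (Shh, Ptch1 and Gli1) and for 13.5% of all genes.

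Among the 3 Shh probe sets, the largest difference was that of 4646084, which read 7.41, 7.56 and 8.85 in SG and 9.50, 9.54 and 9.48 in HF, against 7.23, 6.32 and 7.51 in IFE. The HF arrays were close together and above all others. It rose 5.61-fold in HF over IFE (log2 difference 2.49 ± 0.40 SE, limma adjusted p = 0.00438) and was lower in SG than in HF (-1.57 ± 0.40, adjusted p = 0.0427). The HF against IFE call held without any 1 array (adjusted p up to 0.0227) and ended with the letter block. The SG against HF call was lost when any 1 of 7 arrays was left out (adjusted p up to 0.135), with the letter block and with median centring. It was kept without SG replicate 3 and HF replicate 2 together. SG replicate 3 was the highest of the SG arrays in this probe set, at 8.85, and also in the hair shaft list, at 1.09 against -1.67 and -1.44. Without SG replicate 3, the gene-level difference of SG against IFE was 0.34 in place of 0.74. With quantile normalization it was 0.95 (limma adjusted p = 0.0378) and with median centring 0.98 (adjusted p = 0.0302), both below the minimum size. The letter block gave 1.16 (adjusted p = 0.0884), which was not called. Probe set 4367440 read 7.47, 7.54 and 7.76 in HF against 6.87, 6.69 and 6.21 in IFE, and 4463949 read 7.99, 7.86 and 7.56 in HF against 7.39, 7.33 and 7.83 in IFE, where the groups overlapped. With the mean of the probe sets as the gene's value, Shh was higher in HF than in IFE (1.26, adjusted p = 0.00312). Probe set 4646084 was also the brightest of the 3. As the gene's value it gave 2.49 for HF against IFE (limma adjusted p = 0.00114), which was called too.

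Ihh, the ligand described in sebaceous glands, had its highest mean in SG. It read 6.88, 6.99 and 7.20 on the SG arrays and 6.65, 6.96 and 6.69 on the HF arrays, against 6.75, 6.45 and 6.91 on the IFE arrays. All compartments overlapped, and neighbours in the order SG, HF, IFE did not differ beyond their spread. The difference of SG against IFE was 0.32, with a 95% interval from -0.08 to 0.71 (limma adjusted p = 0.239), and that of SG against HF was 0.25, from -0.14 to 0.65. For SG against IFE, quantile normalization gave 0.48 (limma adjusted p = 0.0637) and median centring 0.56 (adjusted p = 0.04), both below the minimum size. None of the 6 Ihh probe sets passed the threshold in any comparison. The brightest Ihh probe set, 5248582, averaged 9.27 ± 0.14 in SG and 9.20 ± 0.14 in HF, against 9.04 ± 0.39 in IFE (SD, n = 3 each).

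Ptch1, the receptor and feedback target, read 7.80, 7.25 and 8.12 on the SG arrays and 7.98, 8.00 and 8.39 on the HF arrays, against 7.21, 7.62 and 7.65 on the IFE arrays. The HF arrays were above the IFE arrays without overlap, and SG overlapped both. The difference was 0.63 ± 0.23 (SE) for HF against IFE (95% interval 0.12 to 1.14, limma adjusted p = 0.108), 0.23 for SG against IFE (-0.28 to 0.74) and -0.40 for SG against HF (-0.91 to 0.11), and none passed. The SG values moved with single arrays: SG against IFE was 0.029 without SG replicate 3 and 0.46 without SG replicate 2, and SG against HF was -0.60 and -0.17 in the same fits. For HF against IFE, the mean of the probe sets gave 0.74 (limma adjusted p = 0.0148) and the brightest probe set 0.72 (adjusted p = 0.0262). Both were below the minimum size. So were the values with quantile normalization (0.73, limma adjusted p = 0.0458) and median centring (0.74, adjusted p = 0.0383) for HF against IFE. The differences of the Ptch1 probe sets mostly had the same sign. Of 22, the difference was positive in 21 for HF against IFE, where 39.1% of all probe sets were positive, and this count was 21 under quantile normalization and median centring too. Of the 22, 15 did not overlap, where 11.7% of all probe sets were higher in HF without overlap. The median difference of the 22 was 0.77, and that of all probe sets -0.13.

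Against IFE, 3 of 22 Ptch1 probe sets passed the threshold upward in HF (13.6%, where 2.96% of all probe sets did) and 1 in SG (4.55%, where 3% did, near the background). Probe set 4767872 passed in both. It read 8.15, 7.24 and 7.18 in SG and 7.45, 7.71 and 7.77 in HF, against 6.23, 6.57 and 6.34 in IFE, with no overlap. Its log2 difference was 1.14 ± 0.28 (SE) for SG (limma adjusted p = 0.0166) and 1.26 ± 0.28 for HF (adjusted p = 0.0209). Each of the 4 calls was lost in some fits that left out 1 array, with adjusted p up to 0.174, and with the letter block. Probe set 4714760 was lower in SG than in HF (-1.62 ± 0.39, adjusted p = 0.0359), with 6.99, 5.51 and 7.05 in SG against 7.64, 8.44 and 8.32 in HF. This call ended without any 1 of 6 arrays (adjusted p up to 0.139).

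Smo, the membrane protein that carries the signal inward, passed in no comparison. It read 7.83, 7.99 and 7.88 on the SG arrays and 7.88, 8.00 and 8.22 on the HF arrays, against 7.99, 8.03 and 8.38 on the IFE arrays. The groups overlapped, and 0 of 14 probe sets passed in any comparison. The difference from IFE was -0.23 in SG (95% interval -0.61 to 0.15) and -0.10 in HF (-0.48 to 0.28), and both signs turned with quantile normalization. Sufu, which tethers GLI proteins in the cytoplasm, read 7.23, 6.84 and 7.29 in SG and 7.22, 6.91 and 7.20 in HF, against 7.21, 7.29 and 7.19 in IFE. Its difference from IFE was -0.11 in SG (-0.50 to 0.28), where the sign turned with quantile normalization, and -0.12 in HF (-0.51 to 0.27), and 0 of its 14 probe sets passed in any comparison. For both genes the intervals of the difference from IFE ended at -0.61 and 0.28 at the widest.

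Gli1, the activator whose transcript is a standard readout of Hedgehog signalling, had its lowest mean in IFE. Its gene level was 7.81, 7.57 and 7.09 on the SG arrays and 7.48, 7.84 and 7.71 on the HF arrays, against 7.41, 7.11 and 6.46 on the IFE arrays. HF did not overlap IFE, and SG did. The difference was 0.68 ± 0.26 (SE) for HF against IFE (95% interval 0.12 to 1.24, limma adjusted p = 0.113) and 0.49 ± 0.26 for SG against IFE (-0.07 to 1.06, adjusted p = 0.197), and neither passed. Leaving out 1 array gave 0.41 to 0.89 for HF, and for SG 0.23 (without IFE replicate 3) to 0.70. The brightest Gli1 probe set, 4778061, averaged 8.68 in SG and 8.73 in HF, against 8.54 in IFE, and as the gene's value it gave 0.13 for SG (adjusted p = 0.695) and 0.19 for HF (adjusted p = 0.631). The mean of the probe sets gave 0.60 for SG (limma adjusted p = 0.0128) and 0.83 for HF (adjusted p = 0.00368), both below the minimum size. With the letter block the SG difference was 0.066. All 15 probe sets had a positive difference in both comparisons, where 39.1% of all probe sets did for HF and 37.3% for SG. Under quantile normalization and median centring the count was 15 in both comparisons as well. Between SG and HF the difference was -0.19 (-0.75 to 0.38).

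In HF 3 of 15 Gli1 probe sets passed the threshold upward against IFE (20%, where 2.96% of all probe sets did). Of these, 2 passed in SG too (13.3% in SG, where 3% of all probe sets did). All 3 were dimmer than the brightest Gli1 probe set. On the IFE arrays all 3 read below the median gene level of 7.30 to 7.50, with 5401778 and 4843562 furthest below it. Signal over background is unknown. Probe set 5401778 read 4.97, 6.12 and 4.43 in SG and 5.10, 5.49 and 6.50 in HF, against 2.96, 2.78 and 3.68 in IFE. The rise was 4.10-fold in SG (2.04 ± 0.47 on the log2 scale, SE, limma adjusted p = 0.0127) and 5.88-fold in HF (2.56 ± 0.47, adjusted p = 0.00852). Probe set 4955618 read 7.86, 7.94 and 6.13 in SG and 7.60, 7.88 and 7.11 in HF, against 6.0, 5.01 and 5.08 in IFE, so that SG replicate 3 stood nearest to IFE. Its difference was 1.95 ± 0.47 in SG (adjusted p = 0.0155) and 2.17 ± 0.47 in HF (adjusted p = 0.0189). Probe set 4843562 was higher in HF (1.82 ± 0.36, adjusted p = 0.0128) with 5.58, 6.05 and 6.55 against 3.5, 4.87 and 4.35 in IFE. The HF call of 5401778 held without any 1 array (adjusted p up to 0.0444) and was lost with the letter block, as were the SG calls of 5401778 and 4955618. The SG call of 5401778 was also lost without IFE replicate 2 (adjusted p = 0.0559), the HF call of 4843562 without HF replicate 3 (adjusted p = 0.0638), and both calls of 4955618 without any 1 of 4 arrays (adjusted p up to 0.0819).

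**Figure D4:**
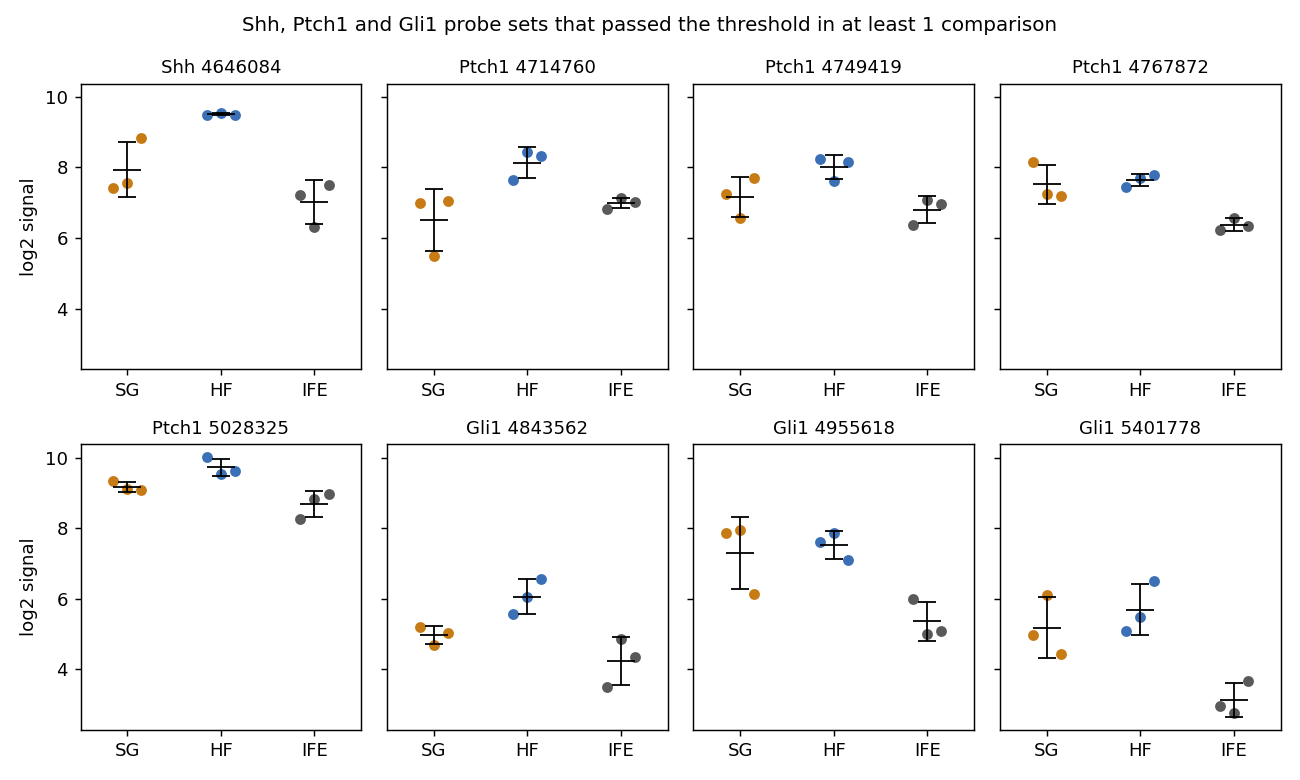
Log2 signal of the 8 probe sets of Shh, Ptch1 and Gli1 that passed the threshold in at least 1 comparison, on the SG, HF and IFE arrays. Points are arrays, bars the mean and its SD. In Shh probe set 4646084 the HF arrays lie at 9.48 to 9.54, and in Gli1 probe set 5401778 the IFE arrays lie at 2.78 to 3.68, below all others.

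Gli3, which serves mainly as a repressor when ligand is absent, read 7.24, 7.47 and 7.60 on the SG arrays and 7.53, 7.48 and 7.84 on the HF arrays, against 6.96, 7.31 and 7.58 on the IFE arrays. The compartments overlapped. The difference from IFE was 0.15 in SG (95% interval -0.28 to 0.59) and 0.33 in HF (-0.10 to 0.76, limma adjusted p = 0.322), and 0 of 16 probe sets passed in any comparison. Its brightest probe set, 4984719, read 10.64, 11.83 and 11.83 in SG and 12.09, 11.68 and 12.26 in HF, against 10.81, 11.31 and 11.03 in IFE, and HF did not overlap IFE there (0.96, adjusted p = 0.11).

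Without Hhip, the members had 90 probe sets. Of these, 7 were higher in HF than in IFE and 0 were lower, a share of 7.78%, where 2.96% of all probe sets were higher and 6.76% changed in either direction. In SG 3 were higher than in IFE and 0 were lower, 3.33% where 3% of all probe sets were higher, which is near the background. Groups that did not overlap and were higher in SG than in IFE were seen for 10 of the 90, and for 10.3% of all probe sets. Between SG and HF 2 were lower in SG and 0 were higher, 2.22% where 4.24% of all probe sets were lower, 1.53% higher and 5.78% changed in either direction. The dermal papilla list is for cells that sit at the base of the follicle and respond to Hedgehog ligand. It lay at -0.15 to 0.17 in SG and 0.22 to 0.33 in HF, against -0.33 to -0.17 in IFE. Of its 17 genes, 2 were higher in SG and 3 in HF, where 2.54% and 2.96% of all genes were. The outer root sheath and resting follicle list had the same order of compartments, with 7 of 14 genes higher in SG and 9 of 14 in HF. The dermal fibroblast list lay at -0.18 to 0.44 in SG and 0.07 to 0.12 in HF, against -0.33 to -0.08 in IFE. Their part in the Shh, Ptch1 and Gli1 differences was not tested.

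**Figure D5:**
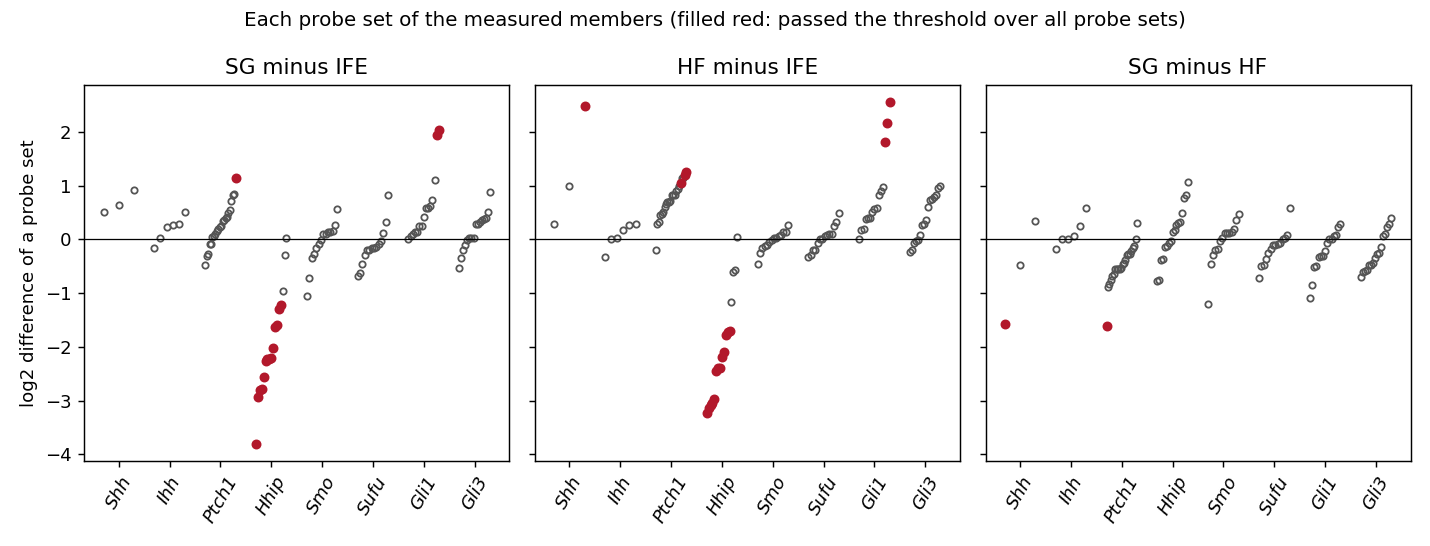
Log2 difference of every probe set of the measured members in the 3 comparisons, sorted within each gene. Filled red points passed an adjusted p under 0.05 over all probe sets with a log2 difference of at least 1. In SG minus IFE and HF minus IFE, Hhip holds all 14 and 13 red points below 0, and those above 0 belong to Shh, Ptch1 and Gli1.

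Of 88 further pathway genes listed, 68 were measured, and few changed. Against IFE 1 was lower in SG and 3 were higher in HF, and 2 were lower in SG than in HF, where 9.49%, 6.31% and 5.11% of all genes changed. None of 8 genes of ligand processing and release, 5 co-receptors and related receptors, and 20 genes of the cilium and of Smo trafficking passed the threshold in any comparison. Cdon, a co-receptor of Hedgehog ligands, stood at -0.76 in SG and -0.72 in HF against IFE (limma adjusted p = 0.0156 and adjusted p = 0.0295), and the glypican Gpc3 at -0.30 in SG and -0.95 in HF (adjusted p = 0.411 and adjusted p = 0.0242), all below the minimum size. Scube2, which helps to release ligand, was at 0.48 and 0.60 (adjusted p = 0.0443 and adjusted p = 0.0266).

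Among 19 target genes measured, 3 were higher in HF than in IFE and none was lower, where 2.96% of all genes were higher and 3.36% lower. Rasl11b, a small GTPase, read 6.84, 6.11 and 6.90 in SG and 8.11, 7.95 and 8.53 in HF, against 6.94, 6.95 and 7.09 in IFE, and every HF array was above every SG and IFE array. It rose by 1.20 ± 0.23 (SE) in HF against IFE (limma adjusted p = 0.00515), and it was lower in SG than in HF (-1.58 ± 0.23, adjusted p = 0.00159). With its brightest probe set these were 0.10 and 0.12, and neither was called. With the mean of its probe sets the HF against IFE difference was 0.79, below the minimum size. Sox9, a transcription factor that is also on the follicle marker list, rose by 1.08 ± 0.16 in HF (adjusted p = 0.000853). Mycn, a growth regulator, rose by 1.04 ± 0.23 in HF (adjusted p = 0.0123) and lay at 0.98 ± 0.23 in SG against IFE (adjusted p = 0.0108), just under the minimum size. The Mycn call depended on 3 arrays (HF replicates 1 and 3 and IFE replicate 1), each of which ended it when left out, and was lost with the mean of the probe sets. Ccnd1, a cyclin, was at -0.30 in SG and -0.18 in HF.

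Among 16 kinases, ubiquitin ligases and other factors that process GLI proteins, 1 was lower in SG than in IFE, where 6.96% of all genes were, and 1 lower in SG than in HF, where 3.3% were, so that both counts were near the background. Prkacb, a catalytic subunit of protein kinase A, which phosphorylates GLI proteins, read 8.10, 8.63 and 8.67 in SG and 8.73, 8.90 and 8.81 in HF, against 9.13, 9.79 and 9.93 in IFE. It fell by 1.15 ± 0.23 (SE) in SG against IFE (limma adjusted p = 0.00438). Spop, the adaptor that brings GLI proteins to a cullin ubiquitin ligase, was lower in SG than in HF (-1.0 ± 0.17, adjusted p = 0.00367). It read 10.09, 9.77 and 10.03 in SG, against 11.09, 10.74 and 11.07 in HF. With the brightest probe set neither was called, at -0.28 for Prkacb (adjusted p = 0.314) and -0.61 for Spop (adjusted p = 0.111), and the letter block ended both calls (adjusted p = 0.0963 and adjusted p = 0.0703). Quantile normalization (-0.77 for Prkacb and -0.86 for Spop), median centring and the mean of the probe sets brought both below the minimum size. The Prkacb call was also lost without SG replicate 1 or IFE replicate 3, and the Spop call without SG replicate 2, HF replicate 1 or HF replicate 3. Without the minimum size, 9 of the 16 were lower in SG than in IFE at an adjusted p under 0.05, where 15.8% of all genes were, among them Gsk3b (-0.98) and Numb (-0.80). That count was 2 with quantile normalization and 4 with median centring. It was 4 to 5 without SG replicate 2, IFE replicate 2 or IFE replicate 3, and 0 with the array letter as a block.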

How the data were processed

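RNA of pooled, hand-dissected tail SG, HF and IFE was amplified, labelled with biotin and measured on exon arrays, per the labels' protocols. RMA, Affymetrix Power Tools and the build mm9 are named, without versions or roles, per the submitters' processing notes. The authors deposited linear intensity values for each probe set, between 2.5 and 30815. Array medians differed. How probe sets were filtered is not given in the sources used here, and signal over background is unknown. The log2 of each intensity was taken with no pseudocount. Of 154736 probe sets, 146964 had 1 symbol in the platform annotation, 1060 several and 6712 none. Old symbols were updated for 1754 through RefSeq, of GRCm38, so no gene coordinates are given. Promoter windows are RefSeq's, on GRCm38.p6.

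All 9 arrays entered a limma fit (limma 3.58.1, R 4.3.3) with a mean per compartment, on genes and again on all probe sets, with eBayes and Benjamini-Hochberg adjustment over 14507 genes or 154736 probe sets. The threshold was that of the report. The code was tested on simulated data. A gene's brightest probe set was that with the highest mean log2 signal over all 9 arrays. The alternatives were the replicate number or array letter as a block, quantile normalization, median centring, a filter on dim genes, the brightest probe set or the mean, eBayes with trend and robust, no minimum difference, and leaving out arrays.

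Same-numbered arrays did not deviate together in all pairs (correlations from -0.02 to 0.23), so the numbers were not taken as pairs. For 5 of 9 arrays, the array of another compartment closest in deviation had the same number. Arrays of different compartments with the same letter correlated from -0.13 to 0.11, and 4 of 9 were closest to their own letter. Number and letter served as blocks only among the alternatives. The members and lists were chosen with earlier results of these data known. All 9 members were named, with up to 4 changed genes of each other pathway list and the 3 genes closest to a changed member. Further genes and the probe sets named were chosen after their values were seen.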

Additional observations from a re-analysis of the deposited data

How the results depend on the processing

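The lower level of Hhip in SG and HF against IFE kept its direction in every alternative and its call in all but the brightest probe set (-0.30 and -0.56) and the filter on dim genes, under which Hhip was not tested (0 members changed in both comparisons, and 0 in the F test). The replicate number as a block changed 1 call, a Hhip probe set in HF, and left 1, 1 and 0 members changed in SG against IFE, HF against IFE and SG against HF. The eBayes options changed none. The causes of the changes below were not tested.

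Member probe sets changed numbered 9, 8 and 0 with the letter block, against 17, 20 and 2, and 1 with median centring for SG against HF. In the F test 3 members passed with median centring, 3 with the brightest probe set and 4 with the mean. Members changed were 2 with the mean for HF against IFE, and with the brightest probe set 0 for SG against IFE and 1 for SG against HF. For HF against IFE the brightest probe set also left 1 member changed, but it was Shh in place of Hhip. Other pathway genes changed in SG against IFE numbered 2 with quantile normalization and without SG replicate 3 and HF replicate 2 together, 3 with centring, 7 with the brightest probe set, 0 with the mean and 15 with no minimum difference. In HF against IFE they were 1 with the dim filter and with the mean, and 9 with no minimum. In SG against HF they were 1 with the letter block, quantile normalization, centring and the dim filter. All genes changed numbered 392 with the letter block for SG against HF, 597 with the dim filter for HF against IFE, and 3171, 1750 and 1373 with no minimum, against 1377, 916 and 741. Quantile normalization moved the median of all genes to 0.16 in SG against IFE and 0.12 in SG against HF, and centring to 0.18 and 0.12.

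Among the members, signs turned for differences that were not called in the main fit. Without SG replicate 3 and HF replicate 2 together, Ihh in HF against IFE was -0.034, and in SG against HF Shh was -0.38, Gli1 0.10, Hhip -0.18 and Sufu -0.17. Smo was 0.10 in HF against IFE with the letter block. In SG against IFE, HF against IFE and SG against HF it was 0.041, 0.036 and 0.0051 with quantile normalization, 0.0071, 0.0052 and 0.0019 with centring, and 0.16, 0.034 and 0.12 with the brightest probe set. Sufu in SG against IFE was 0.076 with quantile normalization and 0.13 with centring. In HF against IFE and SG against HF it was 0.10 and -0.72 with the brightest probe set, and 0.025 and -0.15 with the mean. Shh in SG against HF was -1.57 with the brightest probe set, which passed the threshold in that setting (limma adjusted p = 0.0196), and -0.57 with the mean. With the brightest probe set Satb1 was 0.26 in SG against IFE and Rasl11b 0.12 in SG against HF, although both were called in the median.

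Leaving out 1 array gave 10 to 18, 13 to 21 and 0 to 4 member probe sets changed, and 1 to 3, 2 to 4 and 1 to 2 other pathway genes. The ranges that crossed 0 were, in SG against IFE, Gli3 from -0.0066 to 0.30 and Sufu from -0.20 to 0.030. In HF against IFE they were Ihh from -0.062 to 0.16 and Smo from -0.19 to 0.024. In SG against HF they were Shh from -0.38 to 0.25, Gli1 from -0.35 to 0.014, Hhip from -0.10 to 0.31 and Sufu from -0.089 to 0.15. With 3 arrays a group, the standard error of a member's difference was between 0.17 and 0.31, and signal over background is unknown.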
